A study of Mus musculus with 10 samples.

Results

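DNA replication licensing and fork genes are the 51 genes whose products mark replication origins, load and start the replicative helicase, copy DNA at the fork, supply nucleotides and place histones on the new strands. They were taken by gene symbol from a table of 39769 genes. Each of the 51 passed the filter on low counts, which left 15617 genes for testing. Poly-A RNA was sequenced in 10 libraries from mouse cerebellum or from tissue labelled medulloblastoma, a cerebellar tumour. The Ptch group held 4 control cerebellum libraries from Ptch+/- mice, with Ptch 1 and Ptch 2 at 4 months of age and Ptch 3 and Ptch 4 at 2 months. The NKP group held 3 libraries labelled medulloblastoma from Nestin-Cre Kmt2dfl/+ Ptch+/- mice, all at 4 months. The AKP group held 3 libraries labelled medulloblastoma from AtohI-Cre Kmt2dfl/+ Ptch+/- mice, of which AKP 3 was at 4 months and the others at 2 months. All 3 groups carried the Ptch+/- genotype, and no wild-type library was analysed here. Nestin-Cre is active in neural progenitors and Atoh1-Cre in granule neuron precursors, so the floxed Kmt2d copy was targeted in those lineages. The question was how heterozygous Kmt2d loss changes expression in the tumours that arise on this Ptch+/- background. No library labelled medulloblastoma came from mice without the floxed Kmt2d copy. Between Ptch and either other group, the Kmt2d genotype, Cre and the tissue label changed together and cannot be told apart.

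Before S phase, the origin recognition complex (ORC) with Cdc6 and Cdt1 loads the MCM2-7 helicase onto DNA, a step called licensing that geminin blocks by binding Cdt1. Cdc45 and the GINS complex then join MCM2-7 to form the active helicase, and polymerases alpha, delta and epsilon copy the strands with the clamp PCNA. Many of these genes are transcribed in late G1 under E2F factors. Granule neuron precursors divide in the young cerebellum, and SHH-driven medulloblastoma cells divide in the tumour.

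Total counts ran from 12300430 in Ptch 1 to 19348991 in Ptch 3. Levels are CPM (counts scaled to equal library size) with a correction for library composition, and a count of 3 stood for 0.153 to 0.247 CPM. Kmt2d, the floxed gene, was at 52.6 to 68.4 CPM in the Ptch libraries, at 33.2, 46.9 and 58.0 CPM in NKP 1 to 3 and at 34.3, 41.3 and 43.6 CPM in AKP 1 to 3. The library labelled NKP 3 therefore lay within the Ptch range for the targeted gene, whose value covers the whole gene and not the floxed part. In 4 of 10 libraries (those labelled Ptch 1, Ptch 3, NKP 3 and AKP 3) the sex-linked genes went against the sex label. Libraries are named by their labels throughout. Of all pairs of libraries from different groups, NKP 1 and AKP 1 had the lowest chi-square per degree of freedom over genes, 3.53, against 3.30 to 38.3 within groups. NKP 3 was at 3.84 against Ptch 4 and at 5.37 against Ptch 3. Within its own group, NKP 3 was at 17.1 against NKP 1 and at 15.2 against NKP 2. The labels do not state whether libraries of 1 group are different animals. The p-values therefore describe library-to-library spread, which may be technical.

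The members differ in the DNA before their start sites. RefSeq promoter windows on GRCm38.p6 were matched for 42 of the 51 genes, each holding 250 bases before and 50 after the annotated start. For 7 of these genes, Fen1 among them, more than 1 window was listed, and only the first was searched. Matches at their other start sites were not counted. Those not matched were Gmnn, Mcm4, Gins1, Gins2, Gins4, Prim2, Pole, Rfc2 and Ccne2. Bases directly before the start of the window's transcript are shown for 6 genes. They were chosen because no exon annotated in GENCODE vM21 overlaps them and because they span the levels described next. By its RefSeq gene position, Mcm5 begins at 75109468, within the stretch shown. Cdc6 begins at 98907709, before the stretch shown, so those bases lie within the RefSeq gene. Capitals mark matches to the E2F core, searched on both strands in 4 spellings, which were TTCCCGC, the spelling TTCGCGC, the spelling TTGCCGC and the spelling TTGGCGC, and neighbouring matches can share bases.
Mcm6, chr1:128359706-128359885, minus strand: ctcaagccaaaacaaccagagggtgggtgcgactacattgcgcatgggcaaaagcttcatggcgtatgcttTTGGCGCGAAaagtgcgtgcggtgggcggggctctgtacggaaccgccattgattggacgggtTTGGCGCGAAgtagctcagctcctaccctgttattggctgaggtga
Mcm5, chr8:75109329-75109508, plus strand: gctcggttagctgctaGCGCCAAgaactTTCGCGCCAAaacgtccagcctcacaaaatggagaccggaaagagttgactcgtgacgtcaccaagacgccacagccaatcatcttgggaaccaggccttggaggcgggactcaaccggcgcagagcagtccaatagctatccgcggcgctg
Cdc6, chr11:98907986-98908150, plus strand: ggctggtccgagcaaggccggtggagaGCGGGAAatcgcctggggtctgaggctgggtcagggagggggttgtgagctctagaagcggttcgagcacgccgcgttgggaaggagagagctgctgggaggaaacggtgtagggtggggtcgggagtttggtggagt
Chaf1a, chr17:56040236-56040415, plus strand: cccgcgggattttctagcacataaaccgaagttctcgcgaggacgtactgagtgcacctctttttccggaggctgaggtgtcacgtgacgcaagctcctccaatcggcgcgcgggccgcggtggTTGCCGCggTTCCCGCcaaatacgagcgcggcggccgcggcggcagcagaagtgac
Mcm10, chr2:5012792-5012971, minus strand: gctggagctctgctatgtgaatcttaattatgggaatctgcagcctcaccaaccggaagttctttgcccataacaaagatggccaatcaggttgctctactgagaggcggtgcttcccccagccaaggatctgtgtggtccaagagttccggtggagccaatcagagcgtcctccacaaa
Fen1, chr19:10204394-10204573, minus strand: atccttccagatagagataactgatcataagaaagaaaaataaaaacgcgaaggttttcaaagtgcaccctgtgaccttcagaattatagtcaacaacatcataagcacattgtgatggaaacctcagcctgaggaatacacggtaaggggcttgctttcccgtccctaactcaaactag
Mcm6, Mcm5, Cdc6 and Chaf1a had 4, 3, 1 and 2 core matches in these stretches. The matches in the Mcm6 stretch were pairs that overlap on opposite strands. Mcm10 and Fen1 had 0. Mcm10 nevertheless varied widely between libraries, and Fen1 varied little, as the values below show.

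The 51 genes followed 1 ordering of the libraries more than most genes did. Their CPM summed to 1698, 1668, 1082 and 1041 in Ptch 1 to 4, to 798, 804 and 901 in NKP 1 to 3, and to 801, 1402 and 1228 in AKP 1 to 3. The control cerebellum libraries at 4 months were thus highest, and AKP 1 lay with NKP 1 and NKP 2 rather than with the other AKP libraries. Ptch 1 and Ptch 2 were the 2 highest libraries for 37 members (background 14.3% of tested genes). AKP 1, NKP 1 and NKP 2 were the 3 lowest for 32 members (background 7.12%). Both held for 31 members (background 4.55%). As these are bulk samples, fewer cells that express a gene and less RNA per cell cannot be told apart.

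**Figure D1:**
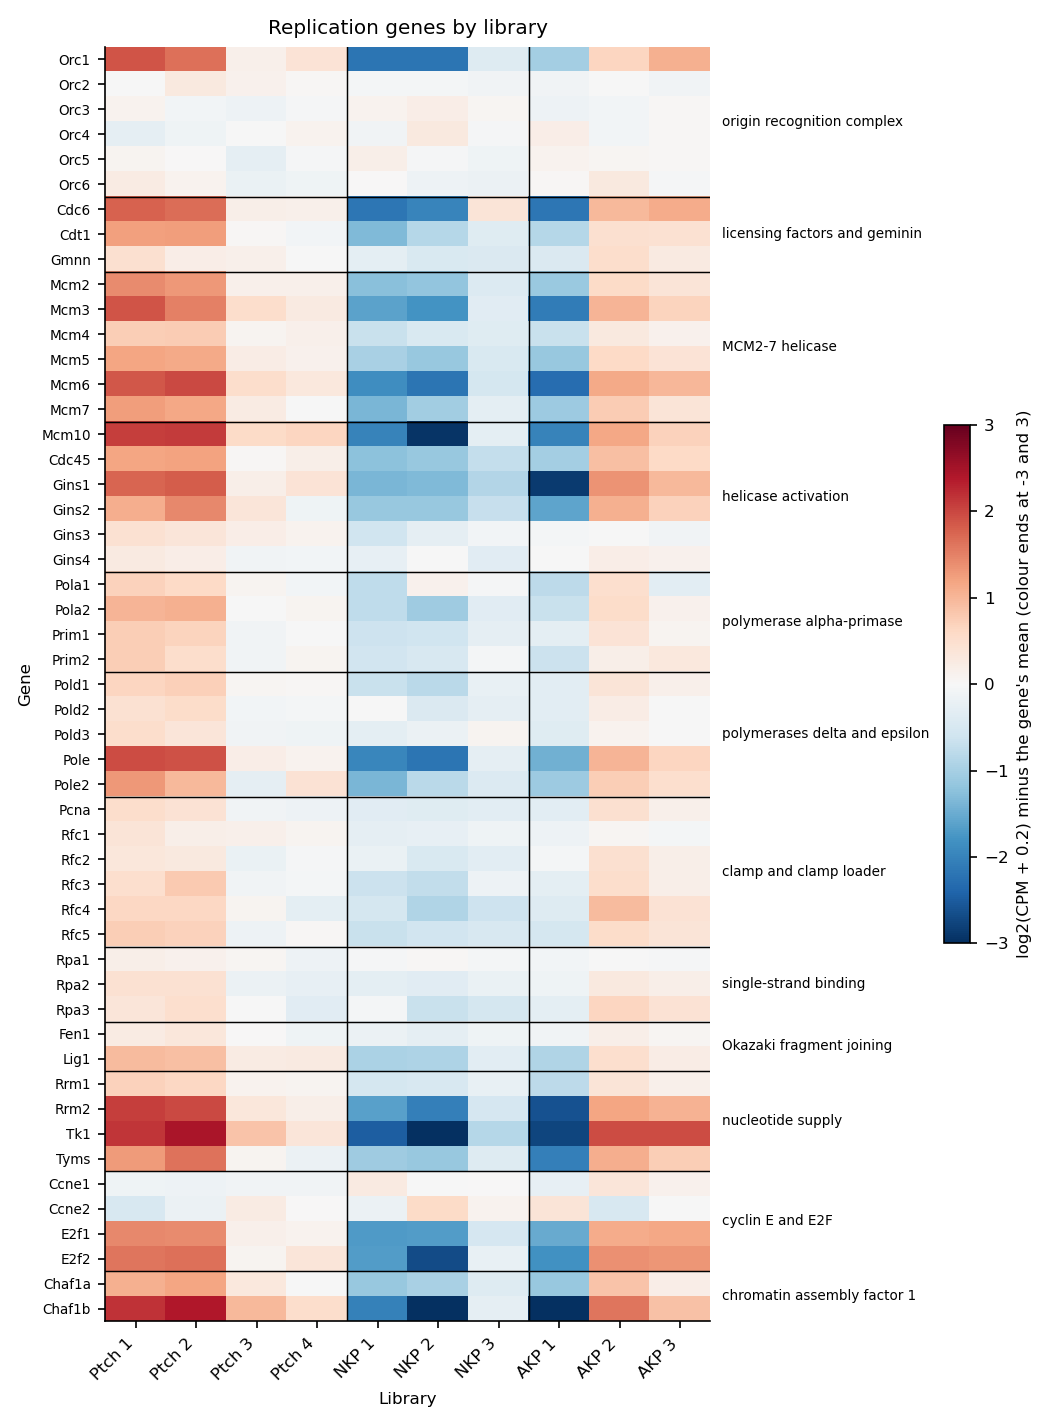
Level of each of the 51 members (rows, by role) in the 10 libraries (columns), as log2(CPM + 0.2) minus the gene's mean over the libraries, with colours ending at -3 and 3. Most rows are highest in Ptch 1 and Ptch 2 and lowest in NKP 1, NKP 2 and AKP 1, while the rows of Orc2 to Orc6 and Rpa1 change little.

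The size of the swing differed by member. On the log2 scale (prior count 1), the distance from the lowest to the highest library had a median of 1.53 over the members and 0.74 over all genes tested. It exceeded 8-fold in 14 members (background 3.96%) and stayed under 2-fold in 16 members (background 66.4%). Per kilobase of the longest coding transcript, Pcna was the most abundant member, with a median of 63.4 CPM per kb over the libraries, and Orc1 the least abundant, with 0.303 CPM per kb.

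The origin recognition complex marks origins throughout the cell cycle, and its subunits divided into Orc1 and the rest. Orc1, the subunit whose level is known to be regulated through the cell cycle, was at 3.16, 2.69, 0.814 and 1.01 CPM in Ptch 1 to 4. It was at 0, 0 and 0.493 CPM in NKP 1 to 3 and at 0.247, 1.23 and 1.69 CPM in AKP 1 to 3. NKP lay below every Ptch library without overlap and AKP overlapped both groups, at counts of at most 52 per library. The other 5 subunits each stayed within a 1.496-fold range over the 10 libraries. Orc3 had the narrowest of these, 1.28-fold. Orc2 shares 24.0% of its exon bases with Nif3l1 on the opposite strand. Orc4 ran the other way from most members, from 31.7 CPM in Ptch 1 to 47.4 CPM in NKP 2. Summed over the complex, levels were 160 to 175 CPM in Ptch, 163 to 181 CPM in NKP and 171 to 172 CPM in AKP, so the groups overlapped.

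Of the licensing factors that work with ORC, Cdc6, the ATPase that helps load MCM2-7, was at 9.16, 8.58, 2.90 and 2.85 CPM in Ptch 1 to 4. It was at 0.409, 0.497 and 3.39 CPM in NKP 1 to 3 and at 0.411, 5.19 and 5.75 CPM in AKP 1 to 3. NKP 3 lay above the 2-month Ptch libraries, so the groups overlapped. Cdt1, the loader that geminin inhibits, was at 23.1, 23.4, 9.93 and 9.19 CPM in Ptch, at 3.76, 5.31 and 7.56 CPM in NKP and at 5.26, 13.7 and 13.5 CPM in AKP. Every NKP library lay below every Ptch library for Cdt1, and AKP lay on both sides of the 2-month Ptch libraries. Gmnn, which encodes geminin, moved less, from 5.20 CPM in NKP 2 to 10.4 CPM in AKP 2.

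The 6 MCM2-7 subunits form a ring with 1 copy of each, yet their RNAs had different ranges. Mcm6 was at 83.4, 90.9, 33.1 and 28.6 CPM in Ptch 1 to 4, at 6.13, 4.86 and 15.8 CPM in NKP 1 to 3 and at 4.52, 49.998 and 45.4 CPM in AKP 1 to 3. Mcm4 was at 33.8, 34.7, 21.4 and 22.5 CPM in Ptch, at 12.7, 14.8 and 15.7 CPM in NKP and at 12.7, 24.7 and 22.3 CPM in AKP. For both, and for each of the other 4 subunits, every NKP library lay below every Ptch library, while AKP 1 lay with NKP and the other AKP libraries with Ptch. The highest library exceeded the lowest by 20.1-fold for Mcm6 and 16.7-fold for Mcm3, against 2.74-fold for Mcm4. Mcm2, Mcm7 and Mcm5 lay between, at 6.42-, 6.22- and 5.01-fold. Per kilobase, Mcm7 was the most abundant subunit in each of the 10 libraries. The least abundant subunit changed, and was Mcm4 in Ptch 1 to 3, AKP 2 and AKP 3 and Mcm3 or Mcm6 elsewhere. The most abundant subunit exceeded the least by 2.85-fold in Ptch 4 and by 7.16-fold in AKP 1.

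**Figure D2:**
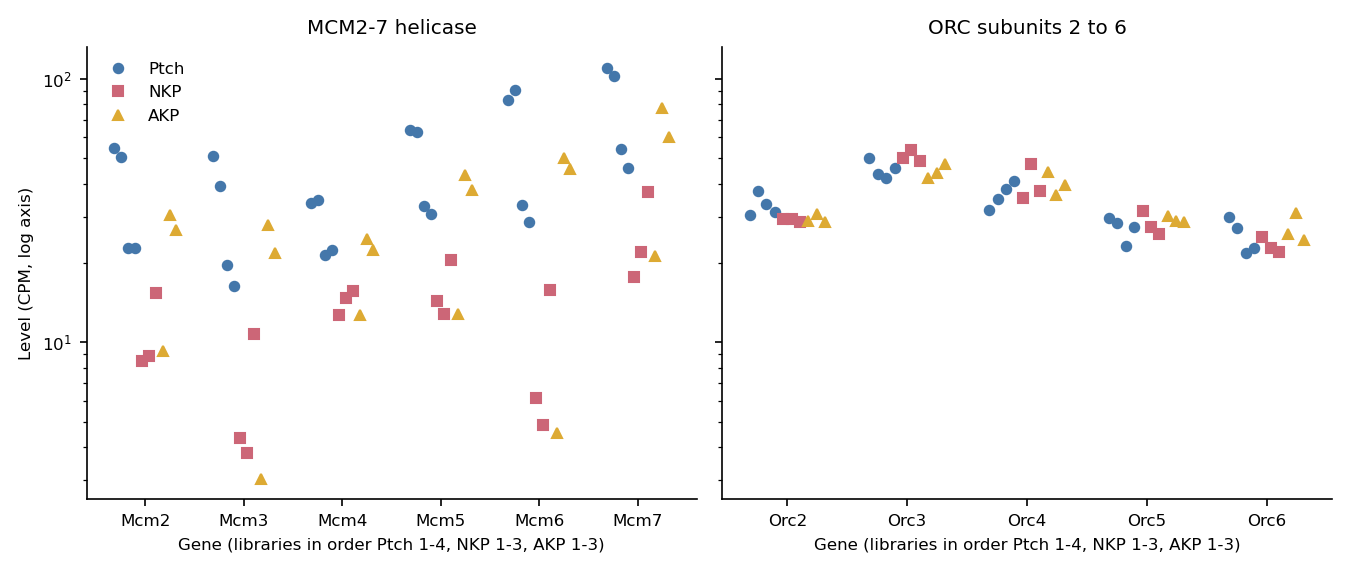
Level in CPM (log axis) of the MCM2-7 subunits and of ORC subunits 2 to 6, 1 point per library, with circles for Ptch, squares for NKP and triangles for AKP. The MCM points are lowest in NKP 1, NKP 2 and AKP 1, with the widest spread for Mcm6 and Mcm3 and the narrowest for Mcm4, while each ORC subunit shown stays within a 1.496-fold range.

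Helicase activation turns loaded MCM2-7 into the moving fork. Cdc45, a part of the active helicase, was at 15.1, 15.3, 6.72 and 7.48 CPM in Ptch 1 to 4, at 2.70, 2.87 and 3.89 CPM in NKP 1 to 3 and at 3.12, 12.4 and 9.95 CPM in AKP 1 to 3. NKP lay below Ptch without overlap. Mcm10, which helps activate the helicase, ran from 0.166 CPM (3 counts) in NKP 2 to 11.8 CPM in Ptch 2. Within the 4-subunit GINS complex, Gins1 ran from 0.247 CPM (3 counts) in AKP 1 to 11.3 CPM in Ptch 2 and Gins2 from 1.32 to 12.1 CPM in the same libraries. Gins4 stayed between 18.0 CPM in NKP 3 and 27.5 CPM in Ptch 1. Gins2 shares 70.7% of its exon bases with Gse1 on the opposite strand. The library kit does not mark strand, so reads within the shared bases cannot be told apart by strand.

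Polymerase alpha with primase lays down primers, and polymerases delta and epsilon extend them. The catalytic subunit of epsilon, Pole, was at 14.1, 13.6, 4.02 and 3.74 CPM in Ptch 1 to 4, at 0.736, 0.608 and 2.85 CPM in NKP 1 to 3 and at 1.15, 7.21 and 5.53 CPM in AKP 1 to 3. Its counterpart in delta, Pold1, was at 30.9, 32.4, 20.4 and 20.2 CPM in Ptch, at 12.2, 11.1 and 16.8 CPM in NKP and at 15.6, 25.8 and 21.9 CPM in AKP. NKP lay below Ptch without overlap for both, but the span was 23.2-fold for Pole and 2.94-fold for Pold1. The delta subunits Pold2 and Pold3 stayed within 1.97- and 1.87-fold, and NKP overlapped Ptch for each. In polymerase alpha-primase, Prim1, the catalytic primase subunit, ran from 10.5 CPM in NKP 1 to 26.9 CPM in Ptch 1. Pola2 had the widest span of these 4 genes, from 4.64 CPM in NKP 2 to 21.0 CPM in Ptch 2.

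The clamp PCNA holds polymerases on DNA and replication factor C (RFC) loads it. Pcna was at 152, 143, 97.9 and 94.6 CPM in Ptch 1 to 4, at 83.4, 82.6 and 84.4 CPM in NKP 1 to 3 and at 84.9, 148 and 118 CPM in AKP 1 to 3. NKP 1 to 3 and AKP 1 were within a few CPM of each other, below all the other libraries. Rfc1, the large subunit of the loader, was at 45.1, 38.9, 38.0 and 36.3 CPM in Ptch, at 28.3, 28.7 and 31.4 CPM in NKP and at 30.9, 35.8 and 32.9 CPM in AKP. Both NKP and AKP lay below Ptch without overlap for Rfc1. Rfc4, a small subunit, had the widest span of the loader, from 7.35 CPM in NKP 2 to 26.9 CPM in AKP 2.

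Replication protein A (RPA) coats single-stranded DNA. Rpa1, its large subunit, had the narrowest span of the 46 members with more than 3 counts in each library, 1.26-fold, from 103 CPM in Ptch 4 to 130 CPM in Ptch 1. Rpa2 and Rpa3 spanned 1.74- and 2.51-fold, and NKP overlapped Ptch for each of the 3 subunits. Of the genes that finish Okazaki fragments, Lig1, the replicative DNA ligase, was at 37.2, 36.0, 22.8 and 23.2 CPM in Ptch 1 to 4, at 9.81, 10.004 and 15.3 CPM in NKP 1 to 3 and at 10.2, 27.3 and 22.5 CPM in AKP 1 to 3. NKP lay below Ptch without overlap, and AKP 1 lay among the NKP libraries. Fen1, the flap nuclease, spanned 1.53-fold, and 84.1% of its exon bases are shared with Gm10143 and Tmem258 on the opposite strand.

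Nucleotide supply had some of the widest spans. Rrm2, the small subunit of ribonucleotide reductase, was at 34.6, 32.0, 10.2 and 9.07 CPM in Ptch 1 to 4, at 2.45, 1.77 and 5.59 CPM in NKP 1 to 3 and at 1.15, 18.5 and 16.8 CPM in AKP 1 to 3. NKP lay below Ptch without overlap, and AKP 1 was the lowest library of all. Rrm1, the large subunit, spanned 2.81-fold against 30.1-fold for Rrm2. Tk1, a thymidine kinase of the salvage pathway, was at 10.7, 13.2, 4.22 and 2.98 CPM in Ptch, at 0.245, 0 and 1.15 CPM in NKP and at 0.164, 9.31 and 9.29 CPM in AKP. Tyms, thymidylate synthase, spanned 14.1-fold, from 1.64 CPM in AKP 1 to 23.2 CPM in Ptch 2.

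Cyclin E drives cells into S phase and E2F factors activate its gene among others, but the 4 genes of this kind did not move together. E2f1 was at 26.7, 26.1, 10.8 and 10.4 CPM in Ptch 1 to 4, at 2.86, 2.93 and 6.84 CPM in NKP 1 to 3 and at 3.29, 21.3 and 22.0 CPM in AKP 1 to 3. Ccne1 was at 12.7, 12.5, 13.0 and 12.9 CPM in Ptch, at 16.8, 13.8 and 14.1 CPM in NKP and at 11.8, 18.1 and 15.3 CPM in AKP. E2f1 was lower in every NKP library than in any Ptch library, and Ccne1 was higher in every NKP library than in any Ptch library, the one member with that order (background 6.96%). Ccne2 ran from 7.39 CPM in Ptch 1 to 15.6 CPM in NKP 2, and E2f2 from 0.221 CPM in NKP 2 to 8.32 CPM in Ptch 2. Chromatin assembly factor 1 deposits histones behind the fork. Its middle subunit Chaf1b was at 13.9, 16.5, 6.01 and 4.37 CPM in Ptch, at 0.572, 0.166 and 2.41 CPM in NKP and at 0.164, 9.45 and 5.60 CPM in AKP. Chaf1a, the large subunit, had the same order of groups with a 5.16-fold span, and shares 33.6% of its exon bases with Ubxn6.

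Ratios between related genes differed between libraries. The ratio of Mcm6 to Mcm4, taken in CPM and so read between libraries and not as a stoichiometry, was 1.27 to 2.62 in Ptch and 0.330 to 1.01 in NKP. It was 0.357, 2.02 and 2.03 in AKP 1 to 3. The groups Ptch and NKP did not overlap, and AKP was split. Rrm2 over Rrm1 was 0.193 to 0.479 in Ptch, 0.0555 to 0.145 in NKP and 0.0447, 0.317 and 0.339 in AKP 1 to 3. Pole over Pold1 was 0.185 to 0.455 in Ptch, 0.0550 to 0.169 in NKP and 0.0737, 0.279 and 0.253 in AKP 1 to 3. Gins1 over Gins4 had the same order, at 0.167 to 0.432 in Ptch, 0.0490 to 0.0884 in NKP and 0.0109, 0.312 and 0.247 in AKP 1 to 3. In each of these 4 ratios AKP 1 was outside the Ptch range on the low side. Each sets a member of wide span over one of narrow span, so these ratios largely repeat the orders given above. No background share was taken for ratios. Cdt1 over Gmnn was different, since Ptch (1.24 to 2.81) and NKP (0.648 to 1.44) overlapped. Rfc4 over Rfc1 overlapped as well, at 0.309 to 0.552 in Ptch and 0.256 to 0.338 in NKP.

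**Figure D3:**
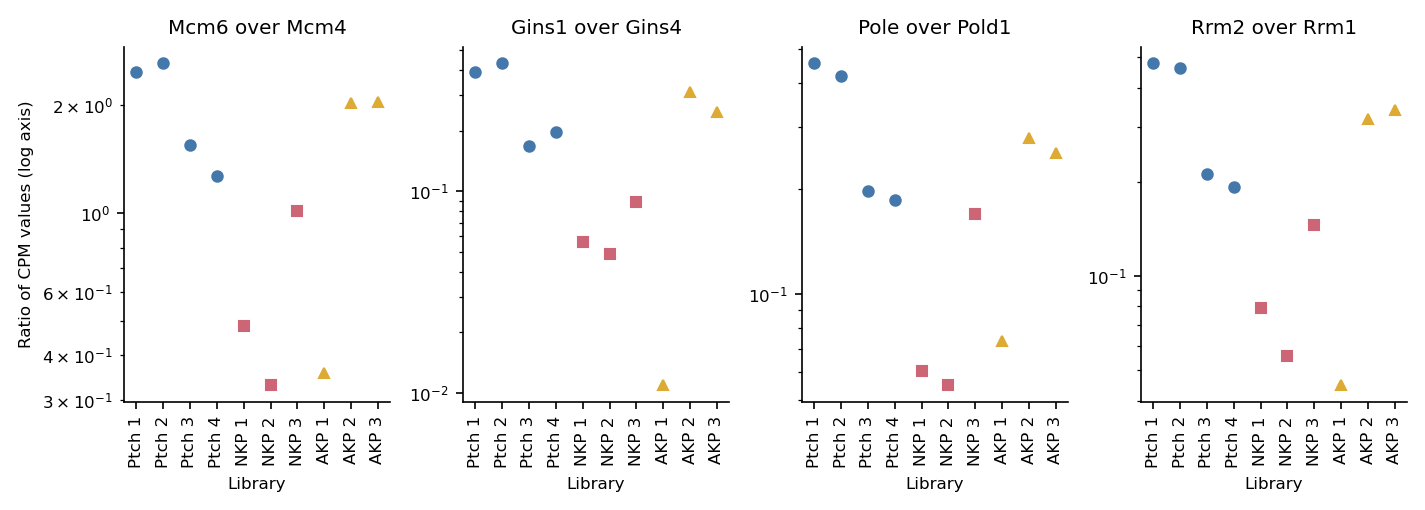
Ratio of the CPM of related genes in each of the 10 libraries (log axes, with circles for Ptch, squares for NKP and triangles for AKP). Mcm6 over Mcm4 lies at 1.27 to 2.62 in Ptch and at 0.330 to 1.01 in NKP, with AKP 1 at 0.357 apart from AKP 2 and AKP 3.

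The libraries labelled NKP had lower levels of most members than the control cerebella, but the difference did not pass the test for any member. Median log2 fold changes by role were -2.38 for chromatin assembly factor 1, -2.22 for nucleotide supply, -1.84 for helicase activation, -1.69 for MCM2-7 and -1.55 for the licensing factors. They were -0.78 to -0.96 for the polymerases, -0.83 for Okazaki fragment joining, -0.95 for cyclin E and E2F, -0.69 for the clamp and its loader, -0.44 for RPA and -0.03 for ORC. With edgeR's quasi-likelihood test, adjusted over all genes tested, 0 of 51 members were called, and the background was 0% of tested genes. At an unadjusted p under 0.05, 39 members were lower (background 10.2%) and 0 were higher (background 6.79%). The count of 39 was 22 without NKP 2, 26 without NKP 1 and 36 without NKP 3. It was 20 without the 4 libraries that went against their sex label. The log2 fold change was below 0 for 46 of 51 members (background 47.7%), with a median of -0.96 against 0.01 over all genes tested. Every NKP library lay below every Ptch library for 36 members (background 8.95%). DESeq2 called 16 members lower (background 2.09%), among them Mcm2, Mcm4, Mcm5, Mcm6, Cdc45, Lig1 and Rrm1.

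The 5 members with the smallest p in this comparison came from the clamp loader, polymerase delta, the helicase and the ligase. Rfc1 had a log2 fold change of -0.42 (SE 0.102), Pold1 of -0.96 (SE 0.232) and Mcm4 of -0.96 (SE 0.242). Cdc45 had -1.81 (SE 0.476) and Lig1 -1.34 (SE 0.345), and the adjusted p by edgeR was 0.218 for each of the 5. The lowest fold change was that of Tk1, at -3.98 (SE 1.36, adjusted p = 0.232 by edgeR), where NKP 2 had no count. The highest was that of Ccne2, at 0.27 (SE 0.239, adjusted p = 0.580 by edgeR). All 3 NKP libraries were labelled 4 months, and the Ptch libraries of that age were the high pair. Against those alone, in a fit by group and age, 21 members were called lower by edgeR (background 5.91%) and the median was -1.25. Those 21 included Rfc1 to Rfc5, Prim1, Prim2, Pold1 to Pold3 and Orc1, with log2 fold changes of -0.51 (SE 0.120, adjusted p = 0.0270) for Rfc1 and -1.24 (SE 0.212, adjusted p = 0.0109) for Pold1. With age as a covariate 16 were called lower (background 4.32%).

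A further 52 genes of replication, listed for their textbook roles in origin firing, fork protection, nucleotide metabolism and histone supply, were read beside the members. With NKP against Ptch, 0 were called, 30 were lower at an unadjusted p under 0.05 (background 10.2%) and the median was -0.63. The 3 with the smallest p were Topbp1, a scaffold for helicase activation and checkpoint signalling, at -0.70 (SE 0.153), E2f7, a repressor of E2F targets, at -2.22 (SE 0.511), and Fbxo5, an inhibitor of the anaphase-promoting complex, at -1.69 (SE 0.406). Each had an adjusted p of 0.218 by edgeR. E2f7 was at 2.75 to 6.92 CPM in Ptch and at most 1.31 CPM in NKP, without overlap.

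**Figure D4:**
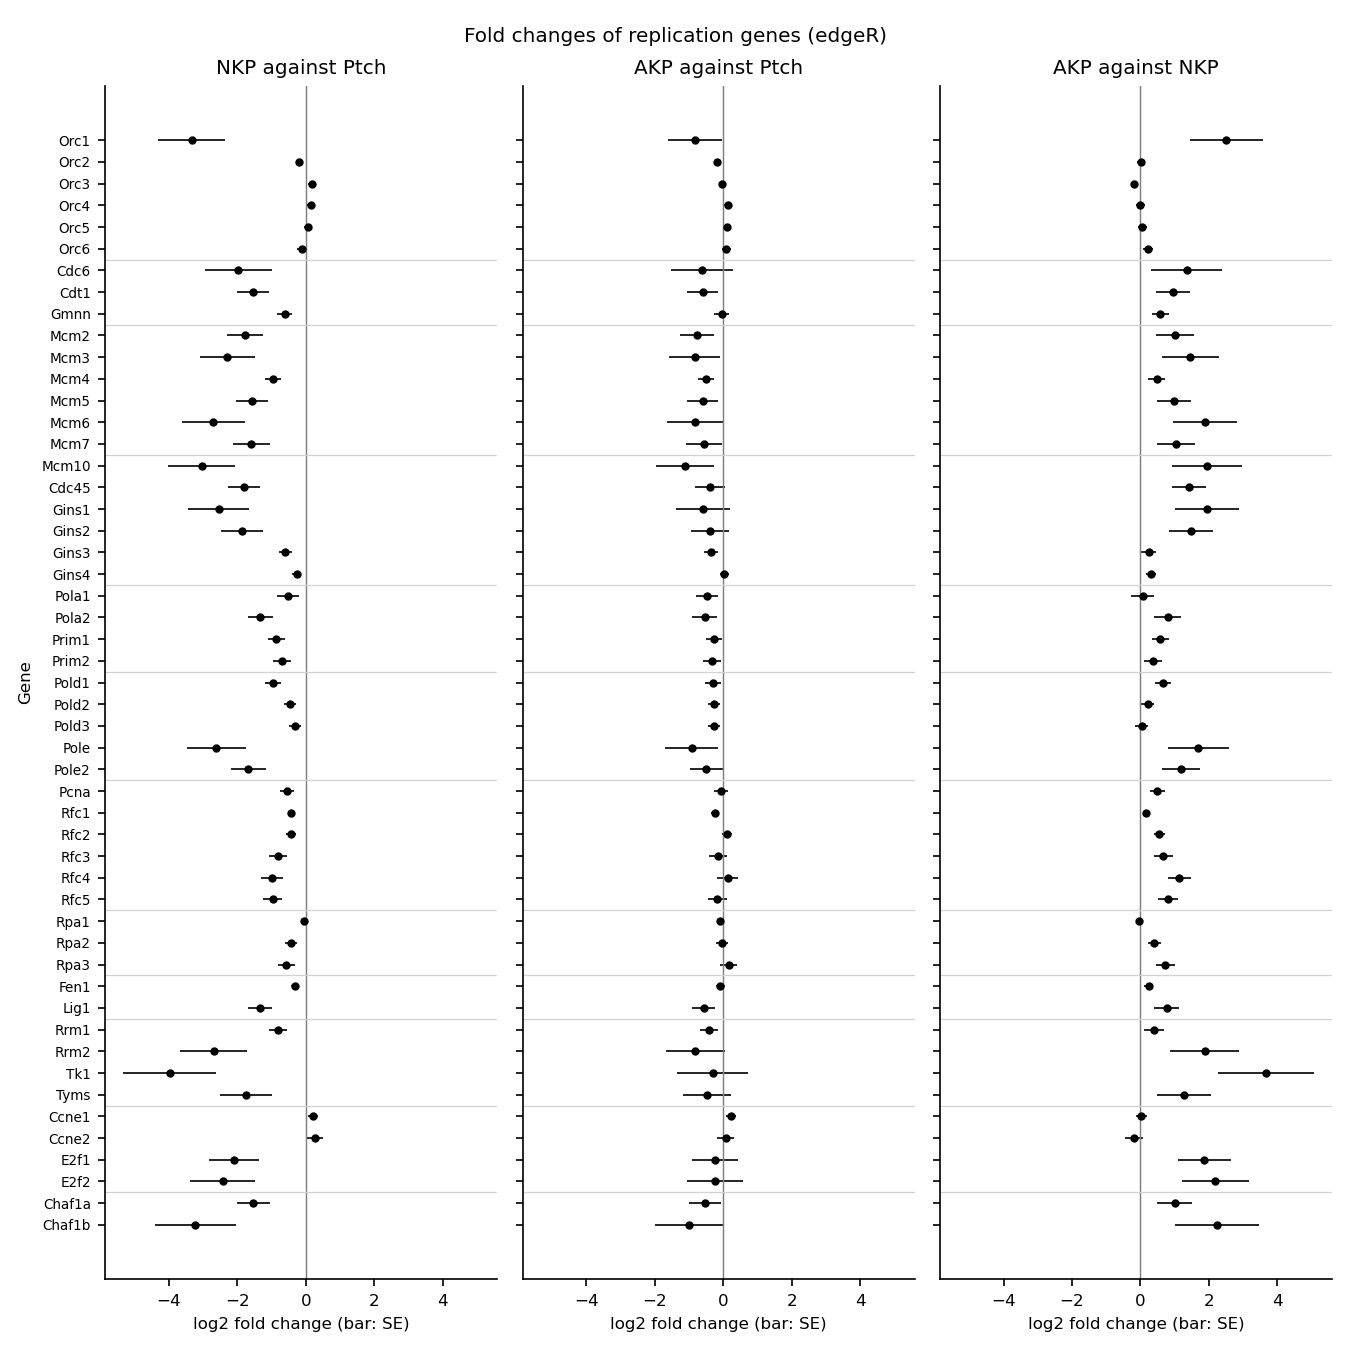
Log2 fold change with its SE for each of the 51 members (rows, by role) in NKP against Ptch, AKP against Ptch and AKP against NKP, on a shared axis. Members lie mostly below 0 for NKP against Ptch (median -0.96), closer to 0 for AKP against Ptch (median -0.30) and mostly above 0 for AKP against NKP (median 0.73), and none passed the test.

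In the libraries labelled AKP most members had log2 fold changes against Ptch below 0, and no member passed the test. Medians by role ran from -0.76 for chromatin assembly factor 1 and -0.68 for MCM2-7 to -0.03 for RPA and 0.03 for ORC. No member was called by edgeR, while 5.68% of tested genes were (2.3% lower and 3.38% higher). At an unadjusted p under 0.05, 1 member was lower (background 12.7%) and 0 were higher (background 12.4%). The log2 fold change was below 0 for 42 members (background 52.3%), with a median of -0.30 against -0.02. DESeq2 also called 0 members (background 5.63% lower), leaving 5 without an adjusted p. Rfc1 and Gins3 were the 2 members with every AKP library below every Ptch library (background 12%). NKP and AKP were compared with the same 4 Ptch libraries.

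Rfc1 had the smallest p among the members, at -0.25 on the log2 scale (SE 0.102, adjusted p = 0.146 by edgeR). Mcm4 followed at -0.49 (SE 0.238), then Orc2 at -0.18 (SE 0.0986), Gins3 at -0.36 (SE 0.198) and Lig1 at -0.57 (SE 0.334), with adjusted p from 0.225 to 0.328 by edgeR. Gins3, a GINS subunit, was at 5.20 to 6.70 CPM in Ptch and at 4.42 to 4.76 CPM in AKP. The extremes were Ccne1 at 0.24 (SE 0.150, adjusted p = 0.348 by edgeR) and Mcm10 at -1.10 (SE 0.849, adjusted p = 0.463 by edgeR). The median was -0.09 without AKP 1 and -0.54 without AKP 2. At 2 months, the age of AKP 1 and AKP 2, it was 0.03, with 21 members below 0. AKP 3, Ptch 1 and Ptch 2 do not enter that comparison, in which the direction was not kept.

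Of the other 52 replication genes, 2 were called, both lower in AKP (background 2.3%), and 13 were lower at an unadjusted p under 0.05 (background 12.7%). Chtf8, a part of an alternative clamp loader, was at 41.8 to 44.4 CPM in Ptch and at 28.5, 23.5 and 25.9 CPM in AKP 1 to 3, which gave -0.74 on the log2 scale (SE 0.0956, adjusted p = 0.0209 by edgeR). All 3 AKP libraries were low for Chtf8, AKP 1 included, and NKP lay between at 34.7 to 39.4 CPM. Topbp1 was at 20.9 to 32.1 CPM in Ptch and at 15.7 to 19.3 CPM in AKP, which gave -0.58 on the log2 scale (SE 0.154, adjusted p = 0.0449 by edgeR). Recql4, a helicase of origin firing, had -0.70 (SE 0.210, adjusted p = 0.0649 by edgeR). The list's median was -0.38. Leaving out Ptch 1, Ptch 2, AKP 2 or AKP 3 in turn ended the call for Chtf8, at log2 fold changes of -0.73, -0.72, -0.67 and -0.74. The call for Topbp1 was lost in 9 of the 10 fits that left out 1 library, with log2 fold changes from -0.66 to -0.46.

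Between the NKP and AKP libraries, most members had higher mean levels in AKP, and no difference passed the test. Medians by role were 1.62 for chromatin assembly factor 1, 1.58 for nucleotide supply, 1.45 for helicase activation and 1.03 for MCM2-7, against 0.04 for ORC. No member was called by edgeR, and 0.0064% of tested genes were. At an unadjusted p under 0.05, 14 members were higher (background 8.82%) and 0 were lower (background 8.04%). The count of 14 was 2 without AKP 2, 3 without NKP 2, 4 without AKP 3 or NKP 1, 7 without the 4 libraries whose sex-linked genes went against the label and 36 without AKP 1. By the adjusted p, DESeq2 called 0 (background 0.596% lower and 0.877% higher), leaving 33 without an adjusted p. The log2 fold change was above 0 for 47 members, with a median of 0.73 against -0.01. The groups did not overlap for 6 members higher in AKP (background 6.69%), namely Gins4, Pcna, Rfc2, Rfc4, Rpa2 and Fen1, and for 1 lower, Orc3 (background 9.52%).

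The 5 members with the smallest p, none of them called, included 3 clamp loader subunits, with Rfc2 at a log2 fold change of 0.55 (SE 0.162), Rfc4 at 1.13 (SE 0.333) and Rfc5 at 0.80 (SE 0.297). Cdc45 had 1.42 (SE 0.499) and Pold1 0.66 (SE 0.247), and the adjusted p by edgeR ran from 0.228 to 0.246 over these 5. The extremes were Tk1 at 3.68 (SE 1.40, adjusted p = 0.265 by edgeR) and Ccne2 at -0.20 (SE 0.259, adjusted p = 0.718 by edgeR). Without AKP 1, edgeR called 11 members higher (background 4.38%), which were Cdc45, E2f1, Gins1, Gins2, Gmnn, Lig1, Rfc2, Rfc4, Rfc5, Rpa3 and Tk1. The median was then 0.96. Among the other replication genes 0 were called and 16 were higher at an unadjusted p under 0.05 (background 8.82%), with a median of 0.30. Chtf8 had -0.52 (SE 0.101) and Dscc1, its partner in the alternative clamp loader, 4.16 (SE 1.28), both with an adjusted p of 0.228 by edgeR. Dscc1 had 1, 0 and 4 counts in NKP 1 to 3 and 1 count in AKP 1, so its fold change is limited by low depth. It was at 0.0818, 0 and 0.219 CPM in NKP 1 to 3 and at 0.0822, 3.32 and 2.43 CPM in AKP 1 to 3.

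Among the controls, the 4-month Ptch libraries were higher than the 2-month ones for most members, and with 2 libraries each the age cannot be told apart from the libraries. No member was called by edgeR, and 0.096% of tested genes were (0.0512% lower and 0.0448% higher). At an unadjusted p under 0.05, 17 members were higher at 4 months (background 7.64%) and 0 were lower (background 7.03%). The count of 17 was 7 to 9 with any 1 Ptch library left out. Both 4-month libraries lay above both 2-month libraries for 46 members (background 33.6%) and below for 3, Orc4, Ccne1 and Ccne2 (background 29%). The median log2 fold change was 0.73 against 0.02 over all genes tested. Rpa2 had the smallest p, with 0.66 (SE 0.152, adjusted p = 0.146 by edgeR), from levels of 32.6 and 32.8 CPM at 4 months and 21.1 and 20.1 CPM at 2 months. Prim1 had 0.77 (SE 0.213), Pold2 0.57 (SE 0.175), Pold3 0.57 (SE 0.175) and Cdt1 1.28 (SE 0.396), with adjusted p from 0.198 to 0.243 by edgeR. The extremes were Pole at 1.83 (SE 0.841, adjusted p = 0.371 by edgeR) and Ccne2 at -0.47 (SE 0.307, adjusted p = 0.496 by edgeR). Of the other replication genes, 0 were called, and Mtbp, a partner of the firing factor Ticrr, had 1.26 (SE 0.317), Topbp1 0.48 (SE 0.153) and Rnaseh2b, a subunit of ribonuclease H2, 0.72 (SE 0.237). DESeq2 called Cdt1 and Rpa2 higher at 4 months (background 0.724%). Without the filter on low counts 33 were called higher (background 2.88%), and 24 were with AKP 1 or AKP 2 left out of the shared fit (backgrounds 4.03% and 3.92%).

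The promoter windows were then set beside the swing of each member. An E2F core stood in 24 of 42 windows (57.1%), against 9.69% of 27025 RefSeq windows of the same length. The members' windows were richer in G and C, with a median of 61.8% against 52.7%, and the core is itself made largely of these bases. The median range over libraries, in log2 CPM, was 2.09 for the 24 members with a core and 1.21 for the 18 without. Tk1, Mcm10, Tyms and E2f1 had wide ranges and no core in the window, and Orc3 had a core and a range of 0.36. By its RefSeq gene position, E2f1 begins at 154569892 on the minus strand. Its window, 154569377 to 154569676, thus lies within the gene, and the bases before the gene were not searched. Tk1 and Tyms begin within their windows, at 117826087 and 30073645. The CCAAT box, searched as CCAAT on both strands, stood in 24 windows (57.1%) against 37.9% of all windows. The cell cycle homology region, searched on both strands as TTTGAA or as the spelling TTCGAA, stood in 6 (14.3%) against 19.4%. These are matches of letters, and in 28 of the 42 windows the bases before the start overlap an annotated exon in GENCODE vM21.

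**Figure D5:**
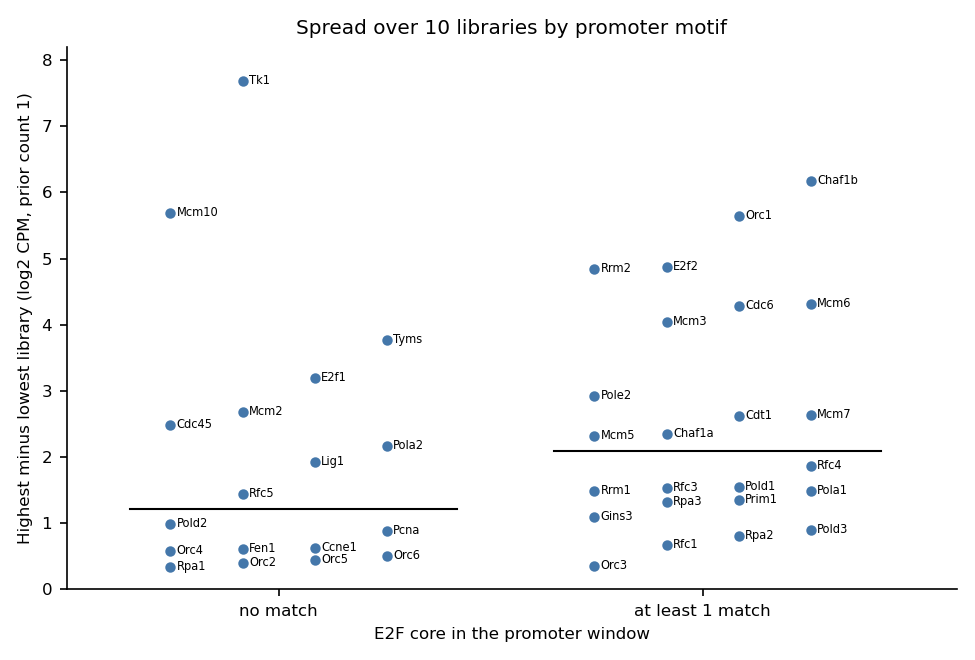
Range of each of the 42 matched members over the 10 libraries (highest minus lowest library, log2 CPM with a prior count of 1) by whether its promoter window holds an E2F core, with lines at the medians. Members with a core have a median of 2.09 and those without 1.21, and both sets hold narrow and wide members.

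Markers of dividing cells moved with the members, and several of the other marker lists did not. The 17 mitosis genes, which encode parts of the mitotic machinery such as Mki67, Top2a and Aurkb, summed to 517, 504, 167 and 152 CPM in Ptch 1 to 4, to 17.3, 14.2 and 77.8 CPM in NKP 1 to 3 and to 14.7, 326 and 262 CPM in AKP 1 to 3. The 7 highest libraries came in the same order as for the members' summed level, and NKP 1, NKP 2 and AKP 1 were lowest in both. In NKP against Ptch, 17 of 17 had a log2 fold change below 0, with 0 called. Mki67 itself was at 27.3 to 84.1 CPM in Ptch and at 0.654, 0.719 and 11.8 CPM in NKP. The 9 granule neuron precursor markers summed to 1183 to 1390 CPM in Ptch, 992 to 1028 CPM in NKP and 1007 to 1081 CPM in AKP. Zic1 and Zic2 had the highest levels of the 9 in each library, and they did not follow the members. Zic2 was highest in NKP 1 and AKP 1, at 275 and 281 CPM. Zic1 was at 649 CPM in AKP 1 against 460 CPM in AKP 2. In NKP against Ptch, 8 of the 9 had a log2 fold change below 0, with a median of -1.32. Atoh1, the gene that defines these precursors, was at 5.71 to 16.4 CPM in Ptch, at 0, 0.221 and 3.67 CPM in NKP and at 0, 5.77 and 5.45 CPM in AKP. The libraries labelled medulloblastoma thus did not exceed the control cerebella in this precursor marker, and the highest of them, AKP 2, was just above the lowest Ptch library.

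The other marker lists described the rest of the tissue. Mature granule neuron markers summed to 3385 to 4204 CPM in Ptch, 4162 to 4753 CPM in NKP and 2715 to 4742 CPM in AKP, and Purkinje cell markers to 3925 to 5389, 4927 to 6243 and 3069 to 5823 CPM. Oligodendrocyte markers summed to 5965 to 7333 CPM in Ptch, 7529 to 12162 CPM in NKP and 8743 to 10967 CPM in AKP, and red blood cell genes to 711 to 816, 783 to 2486 and 1742 to 2233 CPM. Oligodendrocyte markers were lower in every Ptch library than in the other groups, while red blood cell genes overlapped between Ptch and NKP. Endothelial markers were also lower in every Ptch library, at 128 to 174 CPM against 188 to 224 CPM in NKP and 187 to 226 CPM in AKP. Microglia markers summed to 170 to 216, 142 to 150 and 142 to 275 CPM, and oligodendrocyte precursor markers to 190 to 228, 181 to 212 and 200 to 248 CPM. Astrocyte and Bergmann glia markers summed to 2628 to 2757, 2727 to 2999 and 2493 to 2918 CPM, and choroid plexus markers to 1906 to 2779, 1692 to 3974 and 1927 to 2371 CPM. Of all the markers, Atoh1 was at 0 in 2 libraries and Aurkb in 1. The part of cell composition in the members' levels was not tested.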

How the data were processed

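RNA-seq libraries were made from poly-A RNA with an unstranded kit, per the labels' protocols. The submitters' processing notes name Trim Galore, STAR, RSEM and GRCm38. In the sources used here, tool versions and the annotation are not given. The authors' table holds RSEM expected counts per gene, which were already whole numbers as deposited by the authors, so rounding changed nothing. Genes were filtered with filterByExpr by group, scaled by TMM and tested with edgeR 4.0.16 (R 4.3.3, limma 3.58.1) by a robust quasi-likelihood F test in 1 model with no covariate that held the 10 libraries, and p was adjusted by Benjamini-Hochberg over 15617 genes (threshold 0.05). The 2 Ptch ages were compared in a fit of group-by-age cells. SE is the log2 fold change over the square root of F. Alternatives used other scalings, filters and libraries, age, the replicate number as a block and DESeq2 1.42.0. Fold changes with SE were printed for the 5 members with the smallest p, the highest and the lowest member, and 3 other replication genes per comparison, of which 1 is not reported here. The same code was tested on simulated data. The members and all lists (roles, 52 other replication genes, 11 marker lists) were chosen with earlier results of these data known. Background means the share of all tested genes that meet the same rule. Exon overlaps and transcript lengths came from GENCODE vM21. Total counts of 12300430 to 19348991 set the precision, and floors cover counting error only.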

Additional observations from a re-analysis of the deposited data

How the results depend on the processing

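The medians of the members kept their direction under each alternative scaling, filter, tool and left-out library, and also with the libraries against their sex label left out (-1.06 for NKP against Ptch, -0.46 for AKP against Ptch and 0.85 for AKP against NKP, with 0 called), but the AKP against Ptch median was 0.03 with age-matched libraries. With each library left out in turn, the medians ran from -1.07 to -0.84 for NKP against Ptch, from -0.54 to -0.09 for AKP against Ptch and from 0.49 to 0.96 for AKP against NKP. Members called lower in NKP against Ptch numbered 0 in the fit as designed, 16 with DESeq2, 16 with age as a covariate and 21 with age-matched libraries. Members called higher ran from 0 to 11 for AKP against NKP when 1 library was left out, with 11 reached without AKP 1. For the 4-month against the 2-month Ptch libraries they ran from 0 to 24, with 24 reached without AKP 1 or without AKP 2 and were 2 with DESeq2 and 33 without the filter on low counts, where the cause was not tested. Leaving out AKP 1 or AKP 2 also leaves the AKP cell at 2 months with 1 library. The log2 fold change of Ccne2 in AKP against NKP ran from -0.43 (without AKP 1) to 0.040 (without NKP 2, adjusted p = 0.969 by edgeR) and so changed sign. The replicate numbers did not pair the libraries: over 9 pairs with the same number, correlations of deviations from the group mean ran from -0.33 to 0.34, and 3 exceeded 0.1. With the number as a block, 0 members were called in the 3 group comparisons, the medians were -1.06, -0.55 and 0.71, and 0 of all genes were called in AKP against Ptch in place of 887. That count was 1940 with DESeq2, 1459 without AKP 1, 0 without AKP 3 and 1 without AKP 2, Ptch 1 or Ptch 2. The alternatives for single genes of the age comparison were chosen after seeing the data. Low depth limits Orc1, Tk1, Mcm10, Gins1 and Chaf1b, which had 3 counts or fewer in at least 1 library. Among the other replication genes the same held for Dscc1, Ticrr, Dtl, E2f8 and Clspn.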
